A study of Mus musculus with 6 samples.

Results

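The genes described here encode enzymes that build heme or process its breakdown product biliverdin. They were measured in mouse bone marrow macrophages that were turning into osteoclasts, the multinucleate cells that resorb bone. The members were chosen by gene symbol. They are the synthesis enzymes Alas1, Alad, Uros, Urod, Cpox, Ppox and Fech and the biliverdin reductases Blvra and Blvrb. All 9 were found once each among the 26699 genes of the files, and all 9 passed the filter on low counts that left 16843 genes for testing.

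Knockout macrophages (cKO) came from LysmCre-Slc11a2flox/flox mice, and control macrophages came from Slc11a2flox/flox mice with 3 libraries per genotype. Slc11a2 encodes DMT1, which carries ferrous iron and other divalent metals across the endosomal and plasma membranes. In cKO cells Cre recombinase, made under the lysozyme M promoter, deletes it in myeloid cells. Controls carried the same floxed alleles without Cre, so effects of Cre itself cannot be told apart from those of the deletion. All mice were 8 weeks old. Marrow cells of both genotypes grew first in 10 ng/mL M-CSF, which keeps macrophages alive and dividing. They were then held for 48 hours with 30 ng/mL M-CSF and 50 ng/mL RANKL, the osteoclast-inducing cytokine. The labels do not tie libraries to single mice or dishes. Each p-value below therefore rests on library-to-library spread, part of which may be technical.

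Heme synthesis starts in the mitochondrion, where ALAS joins glycine to succinyl-CoA. It continues in the cytosol through enzymes that include ALAD, UROS and UROD and returns to the mitochondrion for CPOX, PPOX and FECH, which inserts ferrous iron into the ring. ALAS1 is the form used outside the erythroid lineage, sets the pace of the pathway and is held down by heme. Heme oxygenases open the ring and release iron and biliverdin, which biliverdin reductases turn into bilirubin. Osteoclasts are rich in mitochondria, whose respiratory chain needs heme as well as iron-sulfur clusters.

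Total counts per library ranged from 49720701 to 57797282 reads, so that 1 read was worth 0.0173 to 0.0201 per 1e6 reads of its library. CPM, counts per 1e6 reads, are here also scaled by TMM factors, which lay between 0.982 and 1.014. Slc11a2 stood at 78.3, 82.8 and 87.4 CPM in cKO libraries, against 119, 110 and 118 CPM in control libraries. Lyz2, the locus that drives Cre, averaged 7783 ± 96.8 CPM in cKO cells and 17105 ± 1577 CPM in control cells (SD, n = 3 each). Slc11a2 was lower in all 3 cKO libraries (log2 fold change -0.48 ± 0.06 SE, edgeR adjusted p = 0.00219). A count over the whole gene takes in exons outside the deletion, so its size is no measure of how many cells lost Slc11a2. Macrophage genes (Csf1r at 2250 to 2717 CPM) and osteoclast genes (Acp5 at 1751 to 3312 CPM) were abundant in all 6 libraries.

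Sequence upstream of the members is shown for the 3 genes with the smallest unadjusted p, Alas1, Ppox and Blvra. RefSeq (GRCm38.p6, the same assembly as mm10) windows were used for 8 of the 9 members, all but Fech. The 250 bases before each start were searched on both strands for 8 short motifs, chosen after these windows had been seen. A member counts as holding a motif if any of its windows does, and 4 members had 2 windows. The percentages below are over single windows, so the 2 counts are not on the same footing. In Alas1 the search found the palindrome made of GCGCA and its reverse complement, bound by nuclear respiratory factor NRF1, a regulator of mitochondrial genes that is known to act on the rat Alas1 promoter. It begins 195 bases before the more downstream of the 2 Alas1 start sites (106247730) and lies downstream of the other (106247954), inside transcripts that begin there. That palindrome was found in 0.782% of all 32851 windows searched, and in no other of the 8 members searched. The 30 bases around it are given, with the palindrome in capitals (chr9:106247906-106247935, minus strand).
Alas1: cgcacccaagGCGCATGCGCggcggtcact

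The windows of Ppox (chr1:171281187-171281436, minus strand) and Blvra (chr2:127070407-127070656, plus strand) differ in the motifs they hold. Capitals mark 4 copies of CCAAT, read on either strand, in Ppox. In Blvra they mark 1 copy of CCAAT and 1 of TGACNNNGC, the core of the antioxidant response element that NRF2 and BACH1 bind. CCAAT was found in 33.8% of all windows and in 4 members (Alad, Urod, Ppox and Blvra). TGACNNNGC was found in 10.2% of all windows and in Blvra alone among the 8 members searched. A match describes these letters and does not show that a factor binds there.
Ppox: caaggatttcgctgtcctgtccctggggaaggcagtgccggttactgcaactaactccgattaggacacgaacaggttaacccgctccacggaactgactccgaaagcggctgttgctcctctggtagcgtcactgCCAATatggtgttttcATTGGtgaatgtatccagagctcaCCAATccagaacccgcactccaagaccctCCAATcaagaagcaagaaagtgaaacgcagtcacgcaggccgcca
Blvra: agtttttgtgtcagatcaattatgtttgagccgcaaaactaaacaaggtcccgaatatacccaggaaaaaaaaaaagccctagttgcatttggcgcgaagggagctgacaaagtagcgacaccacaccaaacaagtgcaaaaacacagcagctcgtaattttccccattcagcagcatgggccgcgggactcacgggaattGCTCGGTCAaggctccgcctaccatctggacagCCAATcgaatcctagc

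The GC box GGGCGG was found in 32.7% of all windows and in 5 members, Alas1, Alad, Uros, Urod and Blvrb. The E-box CACGTG was found in 6.02% of all windows and in Alad, Uros and Urod. The cyclic AMP element TGACGT was found in 6.47% of all windows, the nuclear receptor half-site AGGTCA in 14% and the TATA motif TATAAA in 12.4%. None of these 3 was found in the 8 members searched.

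The pathway was very unevenly expressed, with its entry enzyme far above the later ones. In the authors' FPKM, which divide by gene length, Alas1 averaged 59.6 ± 2 in cKO cells and 47.8 ± 2.37 in control cells (SD, n = 3 each). Uros, which closes the tetrapyrrole ring, had the lowest level, with 1.47 ± 0.216 FPKM in cKO cells and 1.7 ± 0.118 FPKM in control cells. The mean Alas1 level was thus 40.5 times that of Uros in cKO cells and 28.1 times in control cells.

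Between these ends the synthesis enzymes lay close together. Urod, which decarboxylates uroporphyrinogen, averaged 8.27 ± 0.801 FPKM in cKO cells and 9.11 ± 0.805 FPKM in control cells. Fech averaged 4.75 ± 0.198 FPKM in cKO cells and 5.13 ± 0.0624 FPKM in control cells. Alad, Ppox and Cpox lay between 2.72 and 4.59 FPKM in all 6 libraries. Alad overlapped both Cpox and Ppox within each genotype, while in cKO cells every library had more Ppox (3.56 to 4.59 FPKM) than the highest Cpox library (3.2 FPKM). The reductases were more abundant: Blvrb averaged 45.7 ± 3.83 FPKM in cKO cells and 50.1 ± 5.01 FPKM in control cells. Blvra averaged 18.7 ± 1.59 FPKM in cKO cells and 22.2 ± 1.32 FPKM in control cells.

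The order of the top pair depended on genotype and on the length used. In cKO cells every library had more Alas1 (57.64 to 61.63 FPKM) than Blvrb (42.35 to 49.85 FPKM), while in control cells their ranges overlapped (46.29 to 50.57 and 46.17 to 55.7 FPKM). The length behind these FPKM values followed the merged exons of a gene, which for Alas1 span 6174 bases against 3399 in its main transcript. With the main transcript's length, Blvrb led in both genotypes, at 142 ± 10.6 CPM per kilobase in cKO cells and 157 ± 16.2 in control cells. On that scale Alas1 reached 124 ± 3.4 in cKO cells and 101 ± 5.2 in control cells. Uros remained lowest on both scales, and Alad took place 8 instead of 6 in the control order.

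**Figure D1:**
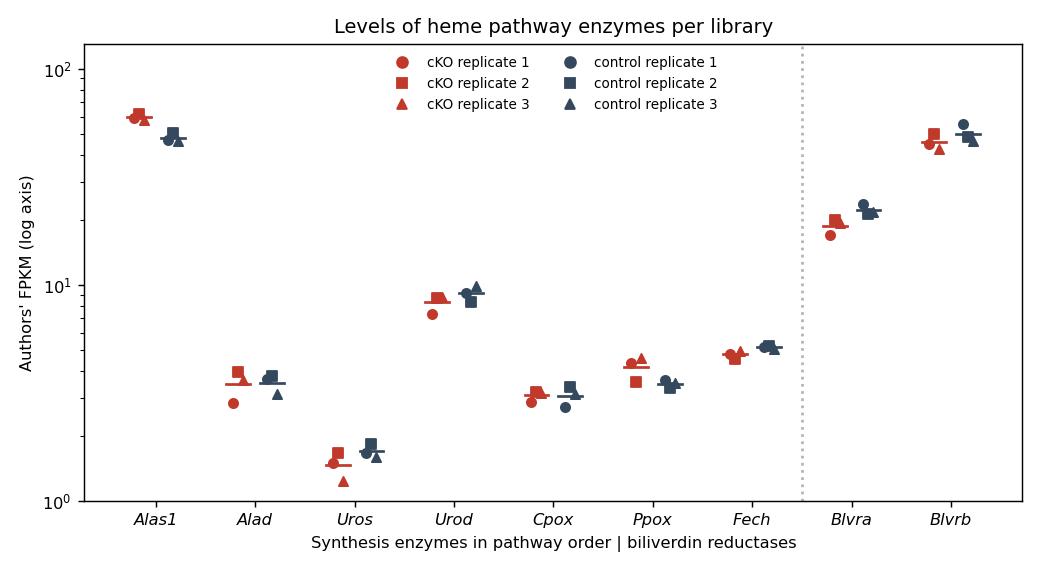
Authors' FPKM (log axis) of the 9 enzymes in each library, with synthesis enzymes in pathway order and the reductases to the right of the dotted line. Points are libraries and lines are means of 3. Alas1 and Blvrb stand near 50 FPKM, Blvra near 20, and the later synthesis enzymes below 10.

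With edgeR and all 6 libraries, Alas1 was the 1 member that passed the test, and it rose in cKO cells. The gene (ENSMUSG00000032786, mm10 chromosome 9, 106233455 to 106248654, minus strand) had 426, 432 and 410 CPM in cKO libraries, against 335, 362 and 329 CPM in control libraries. Every cKO library lay above every control library, as was so for 11.1% of all genes tested, and the gap between the groups was wider than the range within either. edgeR's quasi-likelihood test gave a log2 fold change of 0.30 ± 0.06 (SE), a rise of 23.5% (adjusted p = 0.0233). In bulk RNA, a change per cell cannot be told apart from a change in the mix of cells. Of all genes tested 2.42% were called, 1.36% higher and 1.06% lower in cKO cells. Among the 9 members 1 was called higher and 0 lower.

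The size of the Alas1 difference hardly moved with the library left out, but its call did. The log2 fold change was 0.28 to 0.34 with any 1 library left out. The call was lost without control replicate 1 (adjusted p = 0.101), control replicate 3 (0.114), cKO replicate 1 (0.144) or cKO replicate 2 (0.0528). It held without control replicate 2 (0.0424) and without cKO replicate 3 (0.018). DESeq2 and limma-voom called it too, with adjusted p of 6.77e-05 and 0.0093. An antisense gene, 4930500F10Rik, overlaps 465 bases of Alas1 exons on the opposite strand, but it had 27 reads over all 6 libraries, against 17410 or more Alas1 reads in each.

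The cytosolic synthesis enzymes had negative log2 fold changes, none of which passed the test. Alad, which joins pairs of aminolevulinate into porphobilinogen, had 6.19, 8.43 and 7.84 CPM in cKO libraries, against 8.05, 8.23 and 6.75 CPM in control libraries. The groups overlapped fully, with both the highest and the lowest value in cKO cells. Its log2 fold change of -0.04 ± 0.15 (SE, edgeR adjusted p = 0.939) turned positive in 5 of 14 alternatives. Uros had 6.27, 6.84 and 5.16 CPM in cKO libraries, against 7.03, 7.67 and 6.66 CPM in control libraries. Only cKO replicate 2 reached into the control range. Its log2 fold change was -0.23 ± 0.15 (edgeR adjusted p = 0.487), from 275 to 440 reads per library. Urod had 22.2, 25.6 and 26.2 CPM in cKO libraries, against 27.6, 25 and 29.7 CPM in control libraries, a log2 fold change of -0.15 ± 0.09 (edgeR adjusted p = 0.452). Here control replicate 2 lay below 2 of the cKO libraries.

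None of the late mitochondrial enzymes Cpox, Ppox and Fech passed the test. Cpox, which makes protoporphyrinogen from coproporphyrinogen, had 22.3, 24.2 and 24.1 CPM in cKO libraries, against 21.1, 26 and 24 CPM in control libraries. Its groups overlapped, and its log2 fold change of -0.01 ± 0.09 (edgeR adjusted p = 0.973) has an approximate 95% interval of -0.19 to 0.17.

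Ppox, which oxidises protoporphyrinogen to protoporphyrin, had a positive log2 fold change carried by 2 libraries. The gene (ENSMUSG00000062729, mm10 chromosome 1, 171275990 to 171281186, minus strand) had 22.9, 18.3 and 23.9 CPM in cKO libraries, against 19, 17.5 and 18.2 CPM in control libraries. The level in cKO replicate 2 was within the control range, and those of cKO replicates 1 and 3 were above it. The log2 fold change was 0.25 ± 0.11 (edgeR adjusted p = 0.256), and the adjusted p was 0.0857 without cKO replicate 2. Exons of B4galt3 on the opposite strand overlap 791 bases, or 17.5%, of the Ppox exons. B4galt3 (named for this overlap) averaged 20.4 ± 1.76 CPM in cKO cells and 19.4 ± 1.05 CPM in control cells. Its highest library was also cKO replicate 3. Whether counting used the strand is not known here, so reads of the shared stretch are uncertain.

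Fech, which places iron in protoporphyrin and itself carries an iron-sulfur cluster, had 77.2, 71.3 and 78.6 CPM in cKO libraries. Control libraries had 82.9, 83.2 and 80.7 CPM. All 3 cKO libraries lay below all 3 controls, as they did for 11.4% of all genes tested. The log2 fold change was -0.12 ± 0.06 (edgeR adjusted p = 0.325). It was -0.17 (edgeR adjusted p = 0.138) once the length trend described below was taken out.

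Of the reductases, Blvra came nearest to a call. Blvra, the enzyme that makes bilirubin, is ENSMUSG00000001999 (mm10 chromosome 2, 127070665 to 127097084, plus strand). It had 48.2, 55.3 and 54.6 CPM in cKO libraries, against 67.4, 60.3 and 60.9 CPM in control libraries. The groups did not overlap, and cKO replicate 1 was lowest and control replicate 1 highest. The log2 fold change was -0.25 ± 0.07 (edgeR adjusted p = 0.0982). DESeq2 (0.0488) and limma-voom with sample weights (0.0492) called it lower. With the length trend described below taken out, the log2 fold change was -0.17 (edgeR adjusted p = 0.206).

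Blvrb, which acts on other biliverdin isomers and also as a flavin reductase, had 145, 157 and 136 CPM in cKO libraries, against 180, 156 and 148 CPM in control libraries. The groups overlapped through cKO replicate 2 and control replicates 2 and 3. Its log2 fold change was -0.14 ± 0.08 (edgeR adjusted p = 0.386). Within a library the Blvrb level was 2.64, 2.51 and 2.19 times that of Blvra in cKO cells, and 2.35, 2.27 and 2.14 times in control cells, on the FPKM scale. These ratios overlapped between genotypes.

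**Figure D2:**
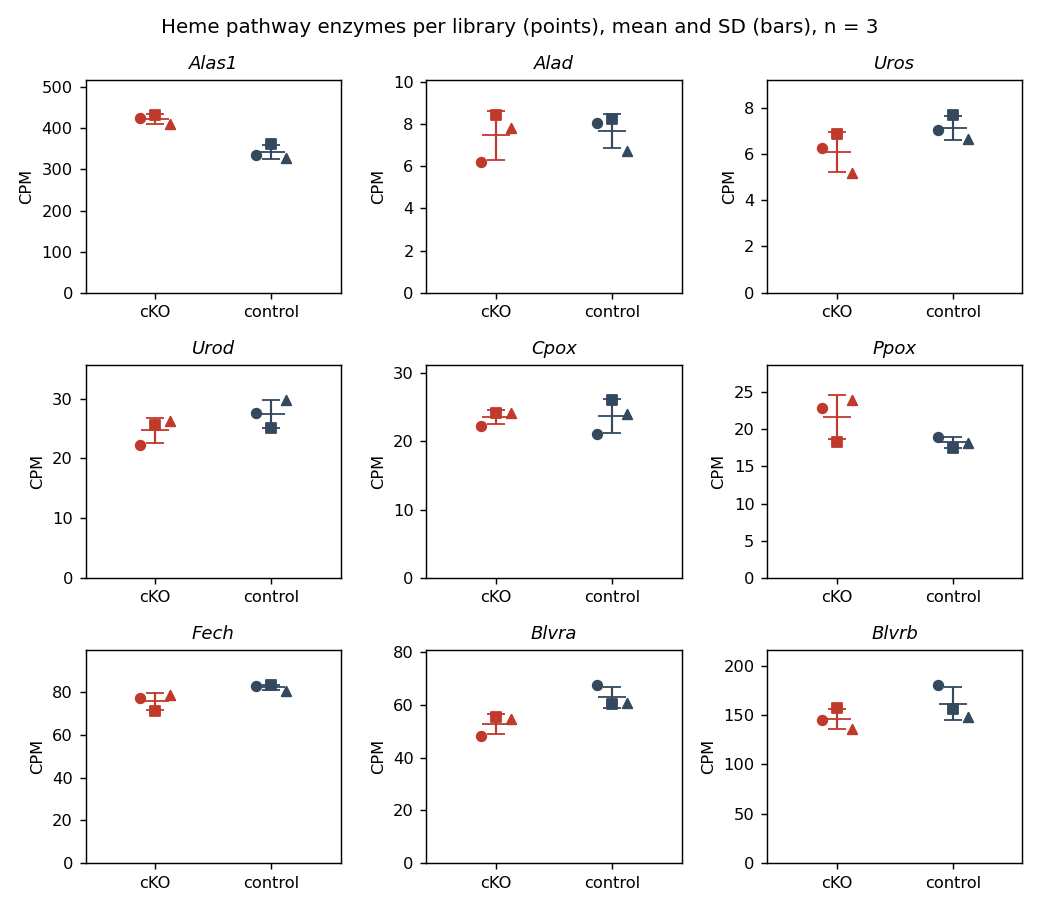
CPM of each enzyme in each library by genotype (circle, square and triangle are replicates 1, 2 and 3), with mean and SD over 3 libraries and axes from 0. The cKO points lie wholly above control for Alas1 and wholly below it for Fech and Blvra; the other 6 enzymes overlap.

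Counted over the members, 2 log2 fold changes were positive and 7 negative, with a median of -0.12, against a median of 0.00 over all genes. At an unadjusted p under 0.05 there were 2 members higher (Alas1 and Ppox) and 1 lower (Blvra). Over all genes tested 17.2% had such a p, 8.38% higher and 8.79% lower. DESeq2 called 1 member higher and 1 lower. It called 6.29% of the 13902 genes to which it gave an adjusted p, 3.09% higher and 3.19% lower. limma-voom made the same calls, where it called 4.18% of all genes, 2.08% higher and 2.1% lower. The sign of Cpox turned in 4 of 14 alternatives, as that of Alad did in 5, and the other 7 members kept their sign in all 14.

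**Figure D3:**
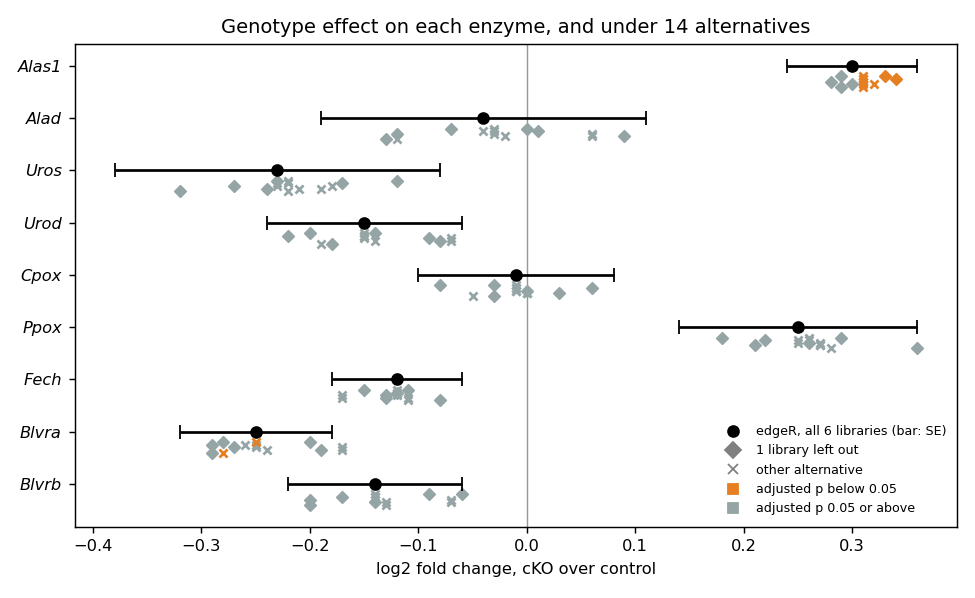
log2 fold change of each enzyme, cKO over control, from edgeR with all 6 libraries (black, bar is SE), and under 14 alternatives (diamonds leave out 1 library, crosses are other alternatives, orange marks an adjusted p below 0.05). Alas1 is positive throughout and orange in 10 of 14, and Blvra is negative throughout and orange in 2 of 14.

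Among the more abundant genes, the log2 fold changes followed gene length, taken as the length behind the FPKM. In 10 groups of genes by length, the median was -0.12 in the shortest group and 0.05 in the longest. Urod and Blvra were in the second shortest group, at a median of -0.09, and Blvrb in the third, at -0.07. Alas1 and Cpox were in group 7, at -0.01, Ppox in group 5 and Fech in the longest group. Alad and Uros were too low for this grouping. With the trend removed, the log2 fold change of Alas1 was 0.31 (edgeR adjusted p = 0.0162). The median over members was then -0.07, against 0.03 over all genes.

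Relative to the later enzymes, Alas1 stood higher in cKO cells within every library, except against Ppox. The ratio of Alas1 to Fech was 12.4, 13.6 and 11.7 in cKO libraries, against 9.06, 9.76 and 9.15 in control libraries, on the FPKM scale. The ratio to Uros was 39.9, 36.9 and 46.5 in cKO libraries, against 27.9, 27.6 and 28.9 in control libraries. In both cases the groups were well apart. The ratio to Urod was 8.08, 7.09 and 6.56 in cKO libraries, against 5.12, 6.09 and 4.67 in control libraries.

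The difference in log2 ratio between genotypes was 0.43 for Fech, 0.54 for Uros, 0.46 for Urod, 0.35 for Alad and 0.31 for Cpox. In each of these 5 the cKO and control libraries did not overlap (exact two-sided permutation p = 0.1, the smallest that 3 libraries against 3 allow, and 0.12 adjusted over 6 ratios). For Ppox the difference was 0.06, with overlapping groups (exact permutation p = 0.8). The 6 ratios share the Alas1 value of each library and are not independent of one another. Alas1 by itself differed by 0.30 without overlap, so its ratio to a steady gene differs as well. Against Cpox, itself at -0.01, the 0.31 is about the change of Alas1 alone. For how many other genes the Alas1 ratio would also separate the genotypes was not tested.

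**Figure D4:**
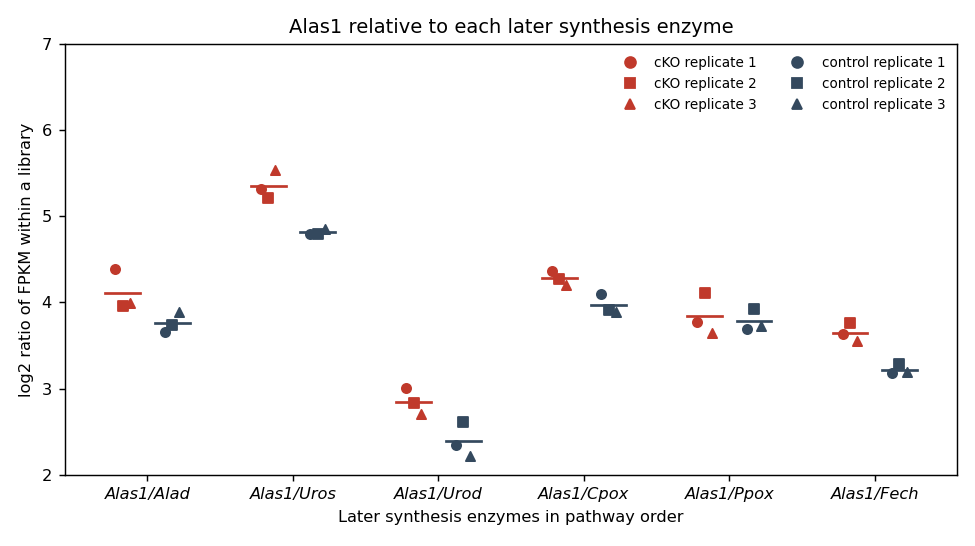
log2 ratio of Alas1 to each later synthesis enzyme within a library, on the FPKM scale, with cKO left of control and lines at means of 3. All cKO points lie above all control points for Alad, Uros, Urod, Cpox and Fech, and the groups overlap for Ppox.

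The heme oxygenases, which act before the reductases, gave 0 calls with edgeR. Hmox1, the inducible heme oxygenase, had 482, 512 and 456 CPM in cKO libraries, against 574, 583 and 511 CPM in control libraries (edgeR adjusted p = 0.151). At 240 ± 15.9 FPKM in cKO cells and 274 ± 18.1 FPKM in control cells, its level was above those of all 9 members. Hmox2, the constitutive form, had 80.5, 79.2 and 82.1 CPM in cKO libraries, against 94, 89.2 and 95.9 CPM in control libraries. All cKO libraries were lower, with a log2 fold change of -0.21 ± 0.06 (edgeR adjusted p = 0.0824, DESeq2 0.0395). Removing the length trend gave -0.12 for Hmox2 (edgeR adjusted p = 0.317) and -0.10 for Hmox1 (0.432). Exons of Cdip1 on the opposite strand cover 40.2% of the Hmox2 exons, and Cdip1 (named for this overlap) averaged 42.4 ± 0.569 CPM in cKO cells and 37 ± 2.85 CPM in control cells. Alas2, the erythroid form of ALAS, had 3 to 8 reads in cKO libraries and 0 to 12 in control libraries, too few to test. Both heme oxygenases had an unadjusted p under 0.05, and limma-voom called 0.

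Genes that supply or move the substrates of heme synthesis gave 0 calls as well. Of 13 genes for glycine and succinyl-CoA supply, 0 rose and 0 fell with edgeR, and the median log2 fold change was -0.12. Sucla2, a subunit of the succinyl-CoA ligase, had 47.9, 47.6 and 48.2 CPM in cKO libraries, against 56.7, 57.2 and 54.7 CPM in control libraries. These groups were clearly apart (-0.23 ± 0.06, edgeR adjusted p = 0.0658). The other ligase subunit Suclg1 was at -0.23 ± 0.07 (edgeR adjusted p = 0.0943). The glycine cleavage genes went different ways, with Gcsh at -0.31 ± 0.08 (0.0776) and Amt at 0.86 ± 0.27 (0.124), the second from at most 1.94 CPM. At an unadjusted p under 0.05 there was 1 gene higher and 4 lower, and DESeq2 and limma-voom called 2 each. Over all genes tested, 8.38% were higher and 8.79% lower at that p.

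Of 13 genes for carrying iron, glycine and porphyrins into or out of mitochondria and the cell, 0 rose and 0 fell with edgeR, and DESeq2 and limma-voom called 0. The median was -0.12, and 2 genes had an unadjusted p under 0.05, as did 17.2% of all genes tested. Tmem14c, which brings protoporphyrinogen into the matrix, averaged 34.1 ± 1.43 CPM in cKO cells and 39.7 ± 2.29 CPM in control cells (-0.22 ± 0.07 SE, edgeR adjusted p = 0.148). The outer membrane protein gene Tspo was at -0.22 ± 0.09 (0.223), and the mitochondrial ABC transporter gene Abcb8 at -0.17 ± 0.08 (0.299). Removing the length trend gave -0.09 for Tmem14c (edgeR adjusted p = 0.565), -0.10 for Tspo (0.592) and -0.16 for Abcb8 (0.339).

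Known regulators of Alas1 and of heme oxygenase gave 0 calls among 20 genes tested, with edgeR, DESeq2 and limma-voom alike. Of these, 3 had an unadjusted p under 0.05, as did 17.2% of all genes tested. The median was -0.03. Nr1d1, which encodes the heme-binding repressor REV-ERB alpha, had 19.1, 22 and 21.4 CPM in cKO libraries, against 28.2, 23.9 and 24.9 CPM in control libraries. The groups did not overlap (-0.30 ± 0.09, edgeR adjusted p = 0.127). Clpx, the unfoldase known to act on ALAS in mitochondria, was at -0.21 ± 0.08 (0.196), and Fbxo22, a ubiquitin ligase subunit that targets BACH1, at -0.21 ± 0.08 (0.189). The co-repressor gene Ncor1 was at 0.13 ± 0.06 (0.31).

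Among 11 tested genes for heme uptake, export and binding, 1 rose and 0 fell, and the median was -0.04. Over all genes tested, 1.36% were called higher and 1.06% lower. Lrp1, the receptor for heme bound to hemopexin and for many other ligands, had 3293, 3255 and 3210 CPM in cKO libraries, against 2636, 2694 and 2498 CPM in control libraries. The groups were far apart (0.32 ± 0.06, edgeR adjusted p = 0.0211). The call was lost without control replicate 1 (0.0771), 2 (0.0632) or 3 (0.0977), without cKO replicate 1 (0.144), and with the length trend removed (0.0728). Hp, encoding haptoglobin, was at 0.35 ± 0.17 (0.323), Abcc5 at 0.12 ± 0.06 (0.348) and the endosomal heme transporter gene Slc48a1 at -0.10 ± 0.06 (0.401).

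Of 7 genes for heme A synthesis, cytochromes c and c1 and cytochrome oxidase assembly (Cox11 and Sco1), 0 rose and 1 fell, with a median of -0.24. At an unadjusted p under 0.05, 5 were lower. Over all genes tested, 1.06% were called lower and 8.79% were lower at that p. Cycs, encoding cytochrome c, fell to 82.1 ± 7.24 CPM in cKO cells, against 104 ± 6.28 CPM in control cells (-0.33 ± 0.07, edgeR adjusted p = 0.0354). Cyc1 was at -0.27 ± 0.09 (0.172), Cox15 at -0.23 ± 0.08 (0.178) and the heme lyase gene Hccs at -0.27 ± 0.11 (0.226). Cycs was called without cKO replicate 3 (0.00994) but not without cKO replicate 1 (0.218) or 2 (0.0861) or control replicate 1 (0.103), 2 (0.0758) or 3 (0.141), nor with the length trend removed (0.075).

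Of 26 tested genes for other heme proteins and their reductases, 2 rose and 2 fell, and the median was -0.07. Here the shares called over all genes tested were 1.36% higher and 1.06% lower. Cybb, the heme-carrying subunit of the phagocyte oxidase, had 1469, 1384 and 1422 CPM in cKO libraries, against 1082, 1162 and 1099 CPM in control libraries (0.35 ± 0.06, edgeR adjusted p = 0.0113). Cyp27a1, a mitochondrial sterol hydroxylase, rose by 0.43 ± 0.10 (0.0448). Sdhc and Sdhd, the membrane subunits that hold the heme of succinate dehydrogenase, were called at -0.31 ± 0.07 (0.0326) and -0.25 ± 0.06 (0.0495).

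Each of these 4 calls was lost when certain single libraries were left out, which also lowers power. Their log2 fold changes kept their sign. Without cKO replicate 1 the edgeR adjusted p was 0.108 for Cybb, 0.173 for Cyp27a1, 0.219 for Sdhc and 0.264 for Sdhd. Without control replicate 1 it was 0.0658 for Cybb, 0.127 for Sdhc and 0.151 for Sdhd, and without control replicate 3 it was 0.0576, 0.142 and 0.166. Cyp27a1 was also lost without control replicate 2 (0.156) or 3 (0.171) and without cKO replicate 2 (0.115) or 3 (0.0576). Sdhc was also lost without cKO replicate 2 (0.0533), and Sdhd without control replicate 2 (0.0955) or cKO replicate 2 (0.0611). With the length trend removed Sdhc was at 0.0581 and Sdhd at 0.264.

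The genes whose profile over the 6 libraries was most like that of Alas1 were found by the root-mean-square distance between log2 deviations from each gene's mean. Among 9925 candidates with a mean of at least 5 CPM, the median distance was 0.20. The nearest was the homeobox gene Pbx3 at 0.019, at 9.51 ± 0.15 CPM in cKO cells and 7.75 ± 0.26 CPM in control cells (edgeR adjusted p = 0.226). The next was Abca1, the cholesterol exporter, at 0.025, with 606, 608 and 606 CPM in cKO libraries, against 480, 529 and 480 CPM in control libraries (edgeR adjusted p = 0.029). That call was lost without control replicate 1 (0.11) or 3 (0.121) and without cKO replicate 1 (0.161) or 2 (0.0553). Lrp1 was the third at 0.030. The distance uses 6 libraries and describes likeness only.

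Markers of other cells were checked beside these values, because erythroid cells carry much heme synthesis RNA. Of 10 erythroid genes analysed, the summed level was 2.03 to 2.22 CPM in cKO libraries and 1.5 to 3.1 CPM in control libraries. The globin genes Hba-a1, Hba-a2, Hbb-bs and Hbb-bt reached at most 0.376 CPM in any library, with all 4 at 0 in control replicate 1. The part of erythroid cells in the levels of the members was not tested. Neutrophil genes summed to 302, 268 and 292 CPM in cKO libraries, against 232, 229 and 201 CPM in control libraries. Of 10 tested, 4 were called higher (Ngp, Ltf, S100a9 and S100a8), against 1.36% of all genes tested. Of the 10 log2 fold changes, 7 were positive and 3 negative, the lowest at -1.48. Most of the sum was Mmp8, with 247, 201 and 241 CPM in cKO libraries, against 209, 198 and 175 CPM in control libraries (edgeR adjusted p = 0.19), and each of the 4 called genes reached at most 23.7 CPM. The myeloid progenitor genes Elane, Prtn3 and Mpo reached at most 1.17 CPM. Of 4 erythroid genes tested, and of 2 mast cell and 1 B cell gene tested, edgeR called 0, and T and NK cell genes were not analysed here. Of 3 megakaryocyte genes 1, Pf4, was called lower, and of 8 macrophage genes 1, Lyz2. Neutrophil genes called numbered 3 to 4 and macrophage genes 1 with any 1 library left out, and Pf4 lost its call without control replicate 1 (0.138) or 2 (0.0948) or cKO replicate 1 (0.186), and with the length trend removed (0.0708).

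Stromal genes were abundant and uneven between libraries. The 6 genes summed to 4061, 5163 and 3217 CPM in cKO libraries, against 3654, 3988 and 3417 CPM in control libraries, mostly from Col1a1 and Col1a2. All 6 had positive log2 fold changes, with a median of 0.38. With edgeR 0 of the 6 were called, and DESeq2 and limma-voom called 1 each. At an unadjusted p under 0.05, 2 were higher, as were 8.38% of all genes tested. The highest stromal sum was in cKO replicate 2, which also had the highest Alas1 level, and cKO replicate 3, with the lowest sum, had the lowest Alas1 level of the cKO libraries. Among controls both were likewise highest in replicate 2 and lowest in replicate 3. Between genotypes the order differed. The stromal sum of cKO replicate 3 was below every control, but its Alas1 level (410 CPM) was above every control (329 to 362 CPM). Osteoclast markers summed to 9139, 8535 and 12212 CPM in cKO libraries, against 12831, 11787 and 15309 CPM in control libraries. All 10 had negative log2 fold changes, and 0 were called with edgeR, DESeq2 or limma-voom. At an unadjusted p under 0.05, 3 were lower, as were 8.79% of all genes tested. Without cKO replicate 3, whose sum was highest among the cKO libraries, edgeR called 6. The part of these cells, and of the stage of osteoclast formation, in the Alas1 difference was not tested.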

How the data were processed

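Polyadenylated RNA was sequenced in 6 libraries. The labels' protocols describe oligo(dT) selection and second strands marked with dUTP, which keeps the strand. The submitters' processing notes name cutadapt 1.9 and mm10. Aligner, counting program and strand setting were not given in the sources used here. Each deposited table gives, per gene, raw read counts and FPKM (the authors' own scaling by depth and length). The gene length behind the FPKM differed by a median of 0.0427% among the 6 tables (8655 genes with 500 or more reads) and scaled with the merged exon length in GENCODE M21.

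The genotype effect was fitted over all genes with edgeR (version 4.0.16, under R 4.3.3): filterByExpr (minimum count 10, minimum total 15), TMM scaling, robust quasi-likelihood F test, Benjamini-Hochberg adjustment over 16843 genes, calls below 0.05. The standard error is the log2 fold change divided by the square root of F, and an approximate 95% interval is 1.96 standard errors either side. The functions were tested on simulated data. DESeq2 1.42.0 and limma 3.58.1 (voom with sample weights) were alternatives, as were other size factors, other filters, leaving out each library, a replicate block and offsets for a per-library lowess trend over length. Libraries of one genotype differed by 16.2 or more in chi-square per degree of freedom, so none was counted as a repeat.

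The members and the 7 related gene lists and 9 marker lists were chosen with earlier results of these data known. On each list up to 4 genes with the smallest p are named, and of marker lists those that were called; other marker genes named were chosen after their values were seen. The heme oxygenases, Alas2, Slc11a2, Lyz2 and the 3 genes nearest to a called member are always named, and some genes of these lists are not reported here.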

Additional observations from a re-analysis of the deposited data

How the results depend on the processing

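Over 14 alternatives Alas1 stayed positive (0.28 to 0.34) and kept its call in all 8 that used all 6 libraries, whereas leaving out 1 library gave 0 to 1 members called higher and 0 members called lower. The count of members called lower was 1 with DESeq2 and with limma-voom (Blvra in both) in place of 0. The number of all genes called higher in cKO cells was 229, against 430 with DESeq2, 350 with limma-voom, 423 with the replicate block and length offsets together, and 39 to 313 with a library left out. The number called lower was 178, against 444 with DESeq2, 354 with limma-voom, 357 with the replicate block, 109 with length offsets, 329 with the replicate block and length offsets, and 20 to 311 with a library left out. The lowest counts were without cKO replicate 1 and the highest without cKO replicate 3.

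Same-numbered libraries of both genotypes showed no shared deviation across all tested genes (correlations of -0.025 to -0.004). Genes with few reads weigh as much as others in this measure, so it cannot exclude pairing. The osteoclast marker sums had the same replicate order in both genotypes. No pairing is stated, so the main fit did not use the replicate numbers. With the replicate block 1 member was called higher, Alas1 at 0.31. Osteoclast markers called numbered 0 with all libraries, 6 without cKO replicate 3 and 8 with the replicate block. The sign of Alad turned without control replicate 1 (0.00), control replicate 2 (0.01) or cKO replicate 1 (0.09) and with length offsets (0.06, also with the block). That of Cpox turned without control replicate 2 (0.06), control replicate 3 (0.00) or cKO replicate 1 (0.03) and with the stricter filter (0.00). With a library left out, the range was -0.13 to 0.09 for Alad, -0.08 to 0.06 for Cpox and -0.07 to 0.16 for the log2 ratio of Alas1 to Ppox, which turned without cKO replicate 2. With length offsets, 251 genes were higher and 109 lower in place of 229 and 178. The cause of these shifts was not tested. A library left out leaves 2 against 3, so lost calls come with less power. For Alad and Uros, at 275 to 472 reads per library, depth also limits what can be seen.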
